A study of Homo sapiens with 26 samples.

Results

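DNMT3A was depleted by siRNA in NCCIT cells, and its transcript effects are given here from 4 of the 26 arrays of the series, the 2 siDNMT3A arrays set against the 2 arrays of the control siRNA siNTC-2. The arrays were taken by their titles, and differences are over all 18417 genes that the array names by a single symbol. NCCIT is a human embryonic carcinoma line, cells of a germ cell tumour that resemble the early embryo in the genes they express. The platform was the Affymetrix Human Gene 1.0 ST array, and the values are on the log2 scale, so a difference of 1 is 2-fold. Further groups used below, each of 2 arrays, were cells given siRNA against DNMT1, DNMT3A and DNMT3B (siD1+3A+3B), against DNMT1 and DNMT3B (siD1+3B), against DNMT3A, DNMT3B and DNMT3L (3A+3B+3L), against DNMT3B and DNMT3L (3B+3L), and the other control siRNA, siNTC-1. Every group was of the same line, grown in medium with serum and transfected with siRNA by the PepMute reagent, so no group is of cells left untransfected. The siRNA sequences and the time between transfection and harvest were not given in the sources used here, DNA methylation was not measured on these arrays, and a single tumour line stands for all cells.

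No label ties siDNMT3A to either control, and siNTC-2 was taken with earlier results of these data known. Along the first principal component, which held 49.53% of the variance of the genes, the siDNMT3A arrays lay at 16.48 and 15.4, beside siNTC-2 at 18.13 and 18.12 and far from siNTC-1 at -25.99 and -24.26. Which control is the right one cannot be settled from the labels, so the difference from siNTC-1 is given beside the main results, and every named gene whose sign it turns is listed among the alternatives at the end. That second difference uses the same siDNMT3A arrays and is therefore not an independent repeat. Whether the duplicates were separate cultures is not stated in the labels, and p-values here reflect array-to-array spread that may be purely technical. Duplicates correlated at 0.99858 in siDNMT3A and 0.99839 in siNTC-2. Embryonic carcinoma markers were high in all 4 arrays: SOX2, LIN28A, L1TD1, DPPA4 and SALL4 lay between 11.06 and 12.45 in siDNMT3A and between 11.13 and 12.42 in siNTC-2, and none passed the test. POU5F1, NANOG and TDGF1 had no row with a single symbol and were not analysed. Markers of fibroblasts (COL1A1, COL3A1, DCN, LUM) and blood cells (PTPRC, CD3E, CD14, LYZ) stayed between 3.95 and 6.17 in siDNMT3A and between 3.91 and 6.14 in siNTC-2, and none of these was called.

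DNMT3A is one of the enzymes that place methyl groups on cytosines of previously unmethylated CG dinucleotides. DNMT3B does the same, DNMT3L is a cofactor of both with no catalytic activity of its own, and DNMT1 copies existing methylation onto the new strand after DNA replication. Methylation of a CG-rich promoter usually accompanies a silent gene, whereas the bodies of transcribed genes are commonly methylated, so loss of a methyltransferase can in principle be followed by changes of either sign.

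Because methylation acts on CG dinucleotides, the promoters of 4 genes that the results turn on are shown with every CG in capitals. They are those of SHISA3 and TENM2, which showed the largest falls, of TENM1, a paralog of TENM2 that rose, and of NID1, the basement membrane gene with the largest rise. Each window spans 1 annotated transcription start of the gene, 5′ to 3′ on the gene's strand, from RefSeq on GRCh38.p14. Any other start of a gene was not examined, and which start these cells use was not measured.
SHISA3, chr4:42397238-42397537, plus strand: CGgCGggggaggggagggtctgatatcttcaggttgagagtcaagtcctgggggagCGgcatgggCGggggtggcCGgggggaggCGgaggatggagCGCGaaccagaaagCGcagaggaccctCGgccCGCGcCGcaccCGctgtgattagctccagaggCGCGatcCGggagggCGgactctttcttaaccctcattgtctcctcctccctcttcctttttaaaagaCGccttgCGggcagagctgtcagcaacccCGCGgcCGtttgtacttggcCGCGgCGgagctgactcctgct
TENM2, chr5:167072992-167073291, plus strand: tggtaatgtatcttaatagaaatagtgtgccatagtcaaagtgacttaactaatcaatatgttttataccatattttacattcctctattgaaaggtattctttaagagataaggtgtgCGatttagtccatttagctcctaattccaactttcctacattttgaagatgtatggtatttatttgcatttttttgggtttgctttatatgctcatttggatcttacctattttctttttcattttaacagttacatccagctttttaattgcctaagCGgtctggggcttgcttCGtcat
TENM1, chrX:125204263-125204562, minus strand: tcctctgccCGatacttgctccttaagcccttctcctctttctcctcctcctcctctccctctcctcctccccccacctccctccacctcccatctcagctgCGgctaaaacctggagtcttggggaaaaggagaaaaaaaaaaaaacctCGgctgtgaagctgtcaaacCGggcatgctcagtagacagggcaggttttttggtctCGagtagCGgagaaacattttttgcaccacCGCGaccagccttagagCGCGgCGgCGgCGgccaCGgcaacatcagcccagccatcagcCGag
NID1, chr1:236065041-236065340, minus strand: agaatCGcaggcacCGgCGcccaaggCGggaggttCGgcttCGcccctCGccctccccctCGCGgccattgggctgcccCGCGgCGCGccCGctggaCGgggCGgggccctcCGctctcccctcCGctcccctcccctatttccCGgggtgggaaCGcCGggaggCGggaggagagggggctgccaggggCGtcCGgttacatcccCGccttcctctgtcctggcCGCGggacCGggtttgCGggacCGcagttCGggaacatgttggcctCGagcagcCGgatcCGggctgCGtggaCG
These windows hold 26 CG dinucleotides at SHISA3, 3 at TENM2, 15 at TENM1 and 36 at NID1. The gene with the largest fall thus has a CG-rich window and the next a CG-poor one. A window was found for 14237 of the 18417 genes, of which 98.2% hold at least 1 CG, and the median number was 23. With the dimmest 40% of genes left out of each set, the median was 27 for genes higher in siDNMT3A, 26 for genes lower in siDNMT3A and 27 for genes not called. Among genes past 1.5-fold, with no such filter, it was 28 for the 54 higher and 21.5 for the 54 lower that have a window.

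The targeted transcript was examined first. DNMT3A was at 6.75 and 6.76 in siDNMT3A, against 7.26 and 7.31 in siNTC-2 and 7.49 and 7.50 in siNTC-1. Both siDNMT3A arrays lay below all 4 control arrays. Relative to siNTC-2 the transcript was at 69.1% (log2 difference -0.53 ± 0.07, SE, n = 2 each; limma adjusted p = 6.71e-05), and relative to siNTC-1 the difference was -0.74. The depletion was partial as these arrays measure it. In a bulk sample, fewer cells with the transcript and less transcript in each cell cannot be told apart.

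The other methyltransferases did not pass the test. DNMT1 was at 10.07 and 10.08 in siDNMT3A, against 9.98 and 9.99 in siNTC-2 (difference 0.09 ± 0.05, adjusted p = 0.314). DNMT3B was at 11.80 in both siDNMT3A arrays, against 11.68 and 11.66 in siNTC-2 (0.13 ± 0.06, adjusted p = 0.181), and its difference from siNTC-1 was -0.18. DNMT3L was at 5.95 and 6.14 in siDNMT3A, against 5.99 and 5.97 in siNTC-2, so the groups overlapped. Among genes of demethylation and maintenance, TET1 differed by 0.06 ± 0.05, TET2 by -0.27 ± 0.09, TET3 by -0.22 ± 0.08 and UHRF1, the partner that brings DNMT1 to newly replicated DNA, by 0.13 ± 0.09, with adjusted p of 0.437, 0.0607, 0.0861 and 0.421. Of 16 measured genes of the methylation machinery, MBD4, a glycosylase that repairs deaminated methylcytosine, was the single other one called, with a rise of 0.19 (adjusted p = 0.0156).

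**Figure D1:**
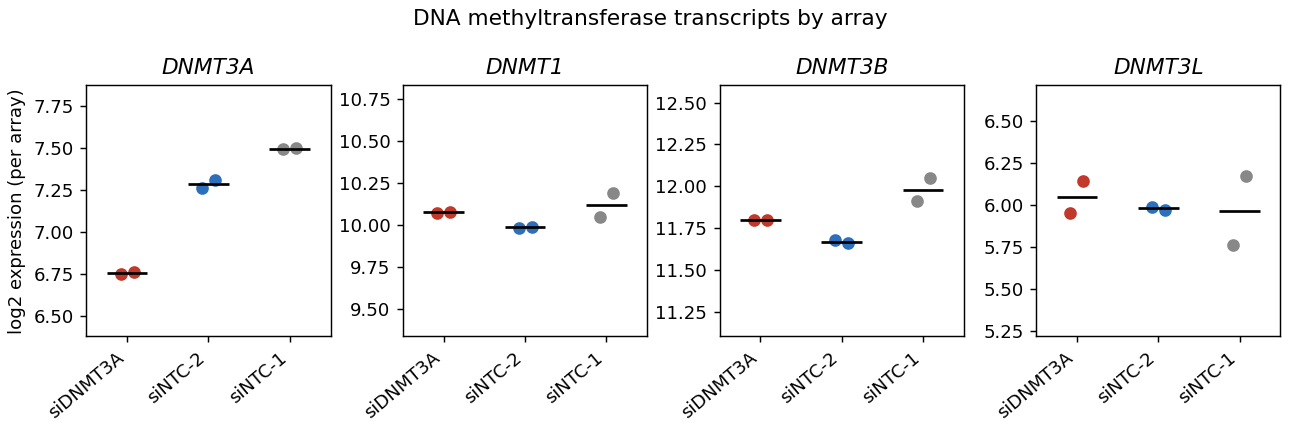
Log2 expression of the 4 DNA methyltransferase genes on each siDNMT3A, siNTC-2 and siNTC-1 array, where each point is 1 array and each line a group mean, with vertical axes of equal span. DNMT3A lies at 6.75 and 6.76 in siDNMT3A, below all control arrays, while the groups lie closer together for DNMT1, DNMT3B and DNMT3L.

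In all, 2911 genes (15.8%) passed the threshold of 0.05 in siDNMT3A against siNTC-2, 1555 of them higher (8.44%) and 1356 lower (7.36%). Most differences were small: the median size of a called difference was 0.29, or 1.22-fold, and 152 genes (0.825%) differed by at least 1.5-fold, 84 higher and 68 lower. Differences between the largest rise, 1.09, and the largest fall, -1.43, were centred, since the median over all genes was -0.005. Both siDNMT3A arrays lay above both siNTC-2 arrays in 5128 genes (27.8%) and below both in 5141 (27.9%). Leaving out any single array of the comparison brought the count of called genes to between 1614 and 1924. In such fits 41 of the genes named in the text lost their call at least once, and each is listed with its highest adjusted p at the end. Against siNTC-1, 8379 genes were called (45.5%), 4542 higher (24.7%) and 3837 lower (20.8%). Of the 1555 genes that rose against siNTC-2, 807 (4.38% of all genes) were also higher than siNTC-1, 279 (1.51%) were lower than siNTC-1 and 469 (2.55%) did not differ detectably from it. Of the 1356 that fell, 445 (2.42% of all genes) were also lower than siNTC-1, 443 (2.41%) were higher than siNTC-1 and 468 (2.54%) were not called. Called genes whose siDNMT3A arrays lay beyond all 4 control arrays numbered 951 higher (5.16%) and 558 lower (3.03%).

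The 15 largest rises were of 1.09 to 0.85, that is, by about 2-fold. TENM1, a teneurin that links neurons by binding latrophilins, was at 6.97 and 7.07 in siDNMT3A, against 5.85 and 6.06 in siNTC-2 and 5.89 and 6.06 in siNTC-1. It rose by 1.07 ± 0.11 (adjusted p = 5.7e-06), and all 4 controls lay together below siDNMT3A. CDH9, a cadherin, was at 7.0 and 6.94 in siDNMT3A, against 6.07 and 5.83 in siNTC-2 (1.02 ± 0.12), and ADAMTS9, a secreted protease that cuts the proteoglycan versican, at 9.69 and 9.64 against 8.73 and 8.74 (0.94 ± 0.07). TMTC1, which adds mannose to cadherins, was at 8.59 and 8.64 in siDNMT3A, against 7.52 and 7.75 in siNTC-2 (0.98 ± 0.07). In each of these genes the siDNMT3A arrays were also above both siNTC-1 arrays.

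ACTN3, an actinin of fast muscle fibres, was at 8.41 and 8.28 in siDNMT3A, against 7.39 and 7.31 in siNTC-2 and 6.60 and 6.55 in siNTC-1 (1.00 ± 0.09 against siNTC-2). TAGLN3, a transgelin of neurons, rose by 1.00 ± 0.11 and ANXA4, a calcium-dependent membrane-binding annexin, by 0.94 ± 0.12. TGFB1, the growth factor TGF-beta 1, was at 6.45 and 6.34 in siDNMT3A, against 5.62 and 5.46 in siNTC-2 (0.85 ± 0.10), and CYBRD1, a ferric reductase of iron uptake, rose by 0.86 ± 0.07. RAP2B, a small GTPase, rose by 0.88 ± 0.09 and YPEL2 by 0.90 ± 0.10. All of these genes also rose against siNTC-1.

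Small RNAs among the leading rises were less uniform. SNORA7B, a box H/ACA RNA that guides pseudouridylation, was at 8.69 and 8.68 in siDNMT3A, against 7.68 and 7.51 in siNTC-2, and had the largest rise of all genes (1.09 ± 0.11). RNU11, the U11 RNA of the minor spliceosome, was at 9.80 and 9.62 in siDNMT3A, against 8.60 and 8.80 in siNTC-2 but 9.78 and 9.72 in siNTC-1, and its difference from siNTC-1 did not pass the test (-0.04, adjusted p = 0.773). SNORA20 rose by 0.86 ± 0.07 against siNTC-2 and was lower by 0.70 against siNTC-1 (difference -0.70). RNU5B-1, a U5 RNA of the major spliceosome, was at 8.61 and 8.91 in siDNMT3A, against 8.29 and 7.44 in siNTC-2, and these siNTC-2 arrays were farther apart than the groups' nearest arrays. Of the 15 leading rises, 12 were also called higher against siNTC-1, 1 was lower and 2 were not called.

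The largest fall was that of SHISA3, a membrane protein that attenuates Wnt signalling. Its level was 8.35 and 8.15 in siDNMT3A, against 9.58 and 9.79 in siNTC-2 and 9.46 and 9.79 in siNTC-1. Both controls lay together and siDNMT3A at 37.1% of siNTC-2 (-1.43 ± 0.13, adjusted p = 1.88e-06; -1.38 against siNTC-1). TENM2, the teneurin whose CG-poor window is printed above, was at 6.22 and 6.05 in siDNMT3A, against 7.31 and 7.45 in siNTC-2 and 6.94 and 6.89 in siNTC-1, and fell to 42.1% of siNTC-2 (-1.25 ± 0.09, adjusted p = 1.19e-07). RAB25, a GTPase of endosome recycling in epithelia, was at 8.45 and 8.44 in siDNMT3A, against 9.42 and 9.35 in siNTC-2 (-0.94 ± 0.07; -0.31 against siNTC-1). HES1, a repressor induced by Notch, was at 6.90 and 6.73 in siDNMT3A, against 7.73 and 7.49 in siNTC-2 (-0.79 ± 0.09), and at 7.01 and 7.07 in siNTC-1, from which the difference of -0.22 did not pass the test (adjusted p = 0.0583).

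For most other leading falls the siDNMT3A arrays lay between the controls. MAL2, a protein of transcytosis in polarised epithelia, was at 10.78 in both siDNMT3A arrays, against 11.92 and 11.95 in siNTC-2 and 9.89 and 9.95 in siNTC-1. It was thus lower than siNTC-2 (-1.16 ± 0.05) and higher than siNTC-1 (0.86 ± 0.05), each past the threshold. The same order held for LAMP3, a lysosomal membrane protein (-1.07 against siNTC-2, 0.84 against siNTC-1), LINC01152, a long noncoding RNA (-0.94 and 0.79), TRIB3 (-0.93 and 1.70), the chloride channel gene BEST1 (-0.91 and 1.28), GDF15, a stress-induced cytokine (-0.87 and 1.22), and JUN, a component of AP-1 (-0.80 and 0.32). SLC34A2, a sodium-phosphate transporter (-1.09), SV2B, a synaptic vesicle protein (-0.83), ADM, the vasodilator adrenomedullin (-0.82), and TAC1, the precursor of substance P (-0.79), fell against siNTC-2 and did not pass the test against siNTC-1. Of the 15 leading falls, 3 were also called lower against siNTC-1, 7 were higher and 5 were not called.

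**Figure D2:**
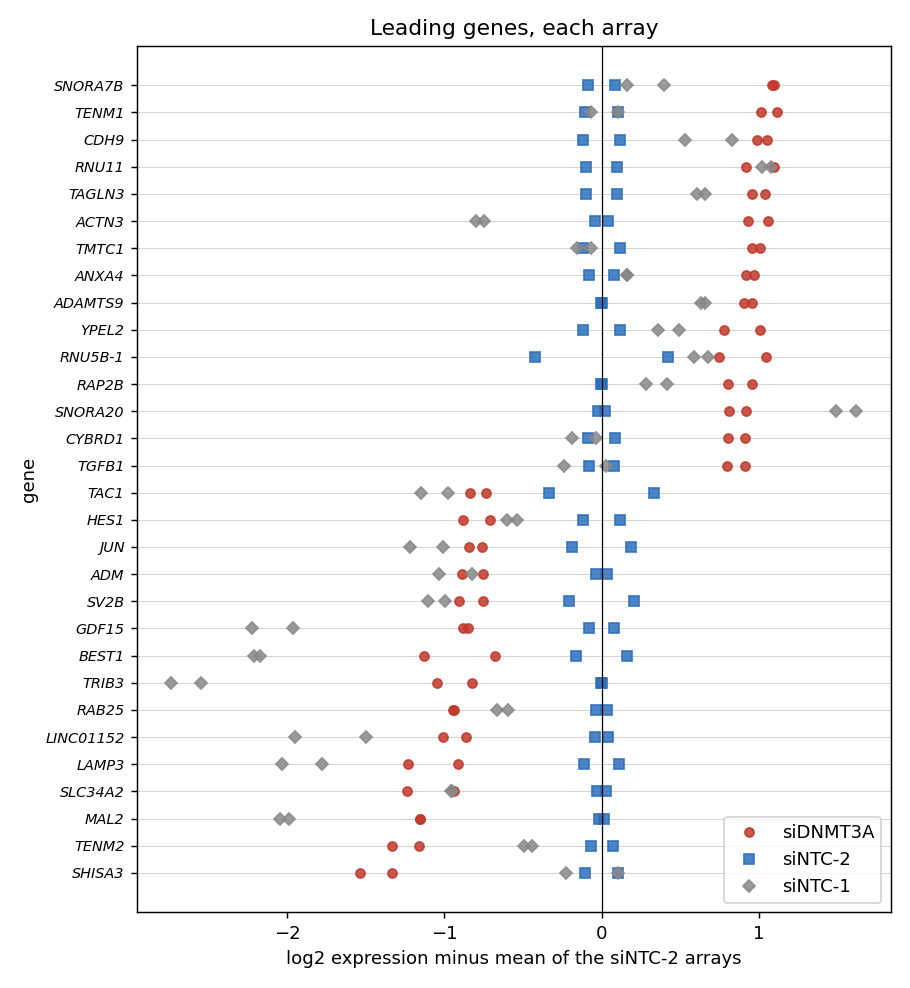
Log2 expression of the 15 genes with the largest rises and the 15 with the largest falls, as each array minus the mean of the siNTC-2 arrays, with points for the siDNMT3A, siNTC-2 and siNTC-1 arrays. For SHISA3, TENM1 and TMTC1 both control groups lie together, whereas for MAL2, TRIB3 and GDF15 the siDNMT3A arrays lie between siNTC-2 and siNTC-1.

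Gene groups were read as counts of called members beside the 8.44% of all genes called higher and the 7.36% called lower. Basement membrane genes encode the laminins, nidogens, perlecan, agrin and type IV collagens of the sheet under epithelia. Of 26 measured members 14 rose (53.8%) and 0 fell, with a median difference of 0.23. Both siDNMT3A arrays lay above both siNTC-2 arrays in 20 members and below both in 1, beside 27.8% and 27.9% of all genes. NID1, nidogen 1, which bridges laminin and collagen IV, was at 9.08 and 8.96 in siDNMT3A, against 8.31 and 8.18 in siNTC-2 and 7.02 and 7.14 in siNTC-1 (0.78 ± 0.08, adjusted p = 6.38e-06). LAMC1, the laminin gamma 1 chain, was at 10.45 and 10.44 in siDNMT3A, against 9.74 and 9.80 in siNTC-2 and 9.39 and 9.46 in siNTC-1 (0.68 ± 0.05, adjusted p = 9.62e-08). For both, siDNMT3A was the highest of the 3 groups.

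The other laminin chains that rose were LAMA1 (0.47 ± 0.06), LAMA2 (0.52 ± 0.07), LAMA4 (0.51 ± 0.07), LAMA5 (0.23 ± 0.06) and LAMB1 (0.23 ± 0.06). LAMC3 differed by 0.24 ± 0.08 (adjusted p = 0.0539), LAMB2 by -0.03 and LAMB3 by -0.04. AGRN, the heparan sulfate proteoglycan agrin, was at 7.87 and 7.81 in siDNMT3A, against 7.29 and 7.19 in siNTC-2 (0.60 ± 0.07), and SPARC, a collagen-binding matrix protein, rose by 0.50 ± 0.06. HSPG2, which encodes perlecan (0.23), PXDN, the peroxidase that crosslinks collagen IV (0.31), FRAS1 (0.18) and FREM2 (0.32), of the Fraser complex, rose as well. With 1 array left out, LAMA5, LAMB1, HSPG2, FRAS1 and FREM2 lost their call in at least 1 fit, with the highest adjusted p at 0.256, 0.0957, 0.0939, 0.177 and 0.069. Of the collagen IV chains COL4A2 rose (0.30 ± 0.05), whereas COL4A1 was at 0.10 ± 0.06 and COL4A5 at -0.14 ± 0.07 with adjusted p of 0.351 and 0.247. Against siNTC-1 the median over the list was 0.29, with 16 members higher (61.5%) and 2 lower (7.69%), beside 24.7% and 20.8% of all genes. Of the 14 members that rose, 13 were also higher there. LAMA4 was the exception, with 6.85 and 7.0 in siDNMT3A, 6.38 and 6.45 in siNTC-2 and 6.95 and 7.12 in siNTC-1.

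Matrix genes outside the basement membrane were called higher in 8 of 27 members (29.6%) and lower in 2, with a median of 0.02. FBN2 (0.64 ± 0.08) and FBN1 (0.49 ± 0.07), the fibrillins of elastic microfibrils, rose against both controls. TNC, which encodes tenascin C, was at 8.07 and 7.99 in siDNMT3A, against 7.45 and 7.39 in siNTC-2 but 8.04 and 7.97 in siNTC-1, and VCAN, which encodes versican, rose by 0.56 ± 0.06 against siNTC-2 and was at -0.19 against siNTC-1. THBS2, which encodes thrombospondin 2, was at 7.54 and 7.52 in siDNMT3A, against 8.12 and 8.10 in siNTC-2 and 9.11 and 9.20 in siNTC-1 (-0.58 ± 0.07 against siNTC-2). It was lowest in siDNMT3A of the 3 groups.

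Teneurins and latrophilins form pairs across the contact between cells, with FLRT and UNC5 proteins as further partners, and teneurins are best known from the wiring of the nervous system. Of 14 genes 4 rose (28.6%) and 2 fell (14.3%), and the median was 0.07. Opposite to TENM2, and beside TENM1, TENM3 was at 9.49 and 9.44 in siDNMT3A, against 9.10 and 9.11 in siNTC-2 (0.35 ± 0.06, adjusted p = 0.000646), while TENM4 differed by 0.16 ± 0.07 (adjusted p = 0.149). FLRT2 rose by 0.57 ± 0.08 and the netrin receptor gene UNC5B by 0.36 ± 0.08, and ADGRL1, which encodes latrophilin 1, fell by 0.24 (difference -0.24 ± 0.05). The 4 that rose were also higher than siNTC-1, and TENM2 was also lower.

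Wnt ligands act through Frizzled receptors with LRP5 or LRP6 and are held back by secreted and membrane inhibitors. Of 59 measured genes 8 rose (13.6%) and 3 fell (5.08%), beside 8.44% and 7.36% of all genes. With a median of 0.01 the group as a whole was not far from those shares, and its members are read below as single genes. FRZB, a secreted Frizzled-related inhibitor, was at 7.68 and 7.65 in siDNMT3A, against 6.94 and 6.81 in siNTC-2 (0.79 ± 0.16, adjusted p = 0.00255), so this inhibitor rose where SHISA3 fell. Receptors that rose were LRP5 (0.37 ± 0.10), FZD10 (0.31 ± 0.08), FZD3 (0.20 ± 0.06), FZD6 (0.19 ± 0.06) and FZD7 (0.18 ± 0.05). ZNRF3, a ubiquitin ligase that removes Frizzled from the surface, rose by 0.25 ± 0.07 and LGR4, an R-spondin receptor, by 0.18 ± 0.04. Of the ligands, WNT4 fell (-0.34 ± 0.08) and WNT11 fell (-0.18 ± 0.06). With 1 array left out, the calls of all 5 receptors, ZNRF3, LGR4, WNT4 and WNT11 were lost in at least 1 fit, with the highest adjusted p between 0.055 (LGR4) and 0.314 (FZD6). Against siNTC-1, FZD3 and LGR4 were at -0.01 and -0.02.

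**Figure D3:**
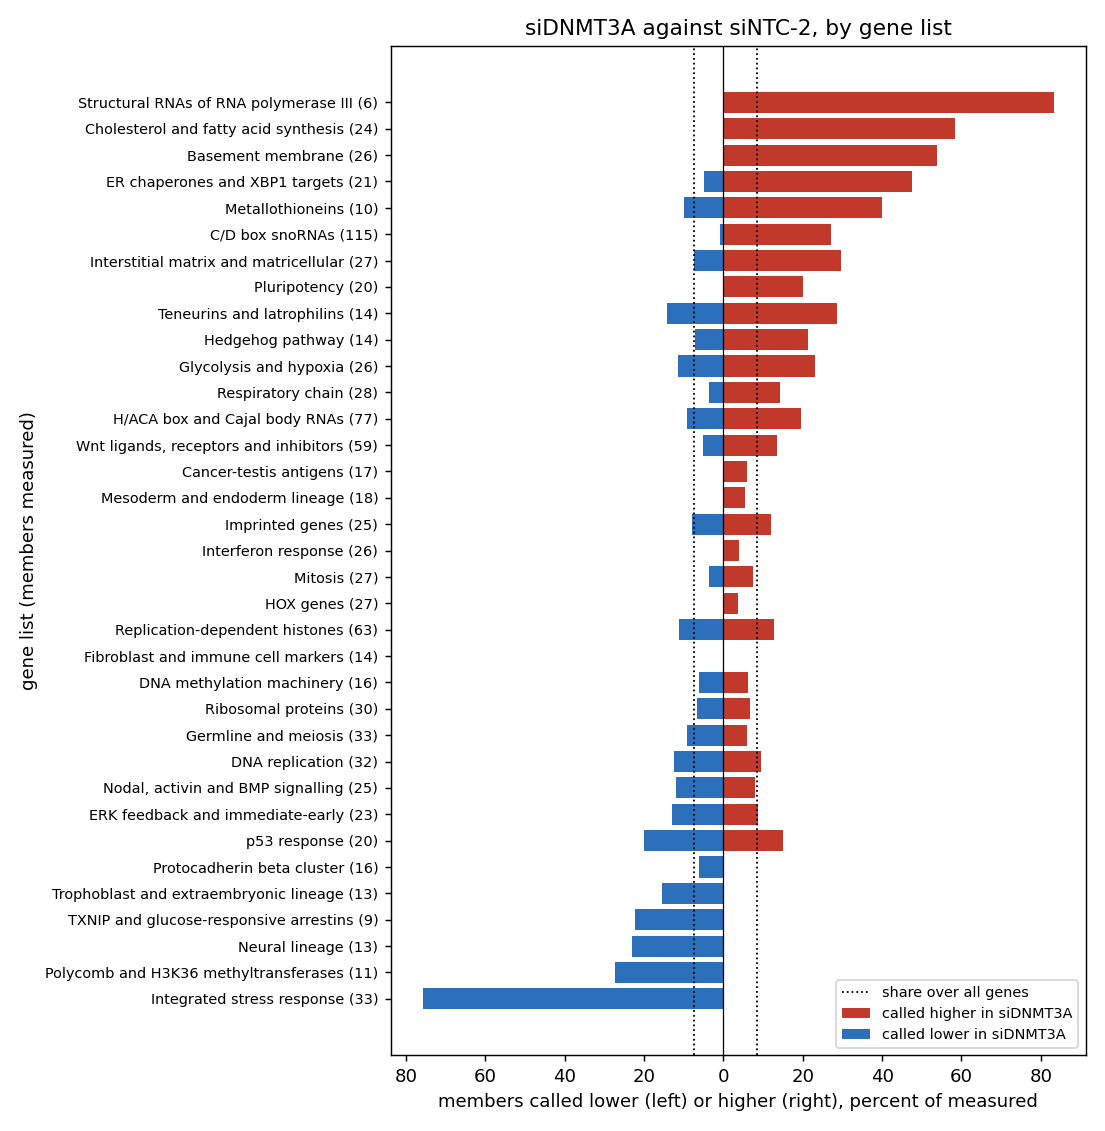
Share of measured members called higher (right, red) or lower (left, blue) in siDNMT3A against siNTC-2 for the gene lists examined, in percent, with the number of measured members in parentheses and dotted lines at the share over all genes (8.44% higher, 7.36% lower). Basement membrane and cholesterol and fatty acid synthesis have 53.8% and 58.3% of members higher and none lower, and the integrated stress response has 75.8% lower and none higher.

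The integrated stress response couples shortage of amino acids or stress of the endoplasmic reticulum to translation of the transcription factor ATF4, which switches on genes of amino acid supply and tRNA charging. ATF4 sites usually read TGATGNAA, and 2 promoters of the group are shown with this motif in capitals, from the same windows as above.
CHAC1, chr15:40953221-40953520, plus strand: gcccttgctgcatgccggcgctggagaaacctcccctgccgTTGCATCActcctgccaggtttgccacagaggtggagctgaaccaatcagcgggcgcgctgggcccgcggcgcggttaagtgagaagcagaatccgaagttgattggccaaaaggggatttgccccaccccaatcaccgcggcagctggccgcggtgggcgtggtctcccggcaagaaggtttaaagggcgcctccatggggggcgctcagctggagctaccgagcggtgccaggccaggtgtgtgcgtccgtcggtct
SLC3A2, chr11:62881449-62881748, plus strand: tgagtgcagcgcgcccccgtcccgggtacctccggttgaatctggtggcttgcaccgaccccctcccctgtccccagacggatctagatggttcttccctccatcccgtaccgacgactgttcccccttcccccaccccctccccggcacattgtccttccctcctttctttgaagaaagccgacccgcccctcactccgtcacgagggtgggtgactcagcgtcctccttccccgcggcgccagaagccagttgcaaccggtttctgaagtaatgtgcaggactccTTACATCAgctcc
On either strand the motif was present in 8 of 27 promoters of the group (29.6%), against 2.54% of all 14237 windows of this length. Of these 8 genes, AARS1, CHAC1, SLC3A2 and SLC7A1 fell. ASNS (-0.20), ATF3 (-0.28), FGF21 (0.07) and MARS1 (0.13) were not called. Of 33 measured genes 25 fell (75.8%) and 0 rose, with a median of -0.35. TRIB3, a pseudokinase that restrains ATF4 signalling, was at 7.85 and 8.07 in siDNMT3A, against 8.90 and 8.89 in siNTC-2 and 6.16 and 6.35 in siNTC-1 (-0.93 ± 0.12, adjusted p = 2.56e-05). CHAC1, which degrades glutathione, was at 10.85 and 10.80 in siDNMT3A, against 11.16 and 11.25 in siNTC-2 and 7.44 and 7.91 in siNTC-1. In both genes siDNMT3A lay between the controls and nearer to siNTC-2, by -0.93 against 1.70 for TRIB3 and by -0.38 against 3.15 for CHAC1, whose difference from siNTC-2 lost its call with any single array left out (highest adjusted p 0.192).

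Of the transporters in the group, SLC7A11, the cystine transporter, fell to 12.11 and 12.13 in siDNMT3A, against 12.58 and 12.56 in siNTC-2 (-0.45 ± 0.05), and its partner SLC3A2 was at 11.18 and 11.10 against 11.51 and 11.50 (-0.37 ± 0.06). The tRNA synthetase genes AARS1 (-0.48 ± 0.05), WARS1 (-0.47 ± 0.04), SARS1 (-0.42 ± 0.05) and GARS1 (-0.19 ± 0.04) fell, as did the serine synthesis gene PSAT1 (-0.44 ± 0.05) and ALDH1L2, of mitochondrial folate metabolism (-0.71 ± 0.07). The transcription factor genes DDIT3, which encodes CHOP (-0.37 ± 0.06), CEBPB (-0.54 ± 0.06) and NUPR1 (-0.74 ± 0.11) fell too. ATF4 itself was at 10.80 and 10.85 in siDNMT3A, against 10.83 and 10.85 in siNTC-2, and with the mean of all its clusters in place of the brightest it was higher (0.28, adjusted p = 0.000585). Its control is known to lie largely in translation. The direction depended on the control: 23 of the 33 genes were lower than siNTC-2 and higher than siNTC-1, and the median against siNTC-1 was 0.72. The 2 controls themselves differed by a median of 1.21 on these genes (siNTC-2 minus siNTC-1), more than either difference of siDNMT3A.

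Chaperones and folding enzymes of the endoplasmic reticulum are induced by ATF6 and XBP1 when unfolded proteins accumulate, through a motif made of CCAAT and CCACG with 9 bases of any kind between them. The promoters of HSPA5 and CALR are shown with it in capitals.
HSPA5, chr9:125241294-125241593, minus strand: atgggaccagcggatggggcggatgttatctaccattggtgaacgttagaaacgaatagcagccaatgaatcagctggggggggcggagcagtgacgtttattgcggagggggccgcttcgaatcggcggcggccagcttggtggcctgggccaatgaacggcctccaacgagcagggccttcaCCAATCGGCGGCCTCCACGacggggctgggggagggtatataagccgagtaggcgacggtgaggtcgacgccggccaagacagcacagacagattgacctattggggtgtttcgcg
CALR, chr19:12938359-12938658, plus strand: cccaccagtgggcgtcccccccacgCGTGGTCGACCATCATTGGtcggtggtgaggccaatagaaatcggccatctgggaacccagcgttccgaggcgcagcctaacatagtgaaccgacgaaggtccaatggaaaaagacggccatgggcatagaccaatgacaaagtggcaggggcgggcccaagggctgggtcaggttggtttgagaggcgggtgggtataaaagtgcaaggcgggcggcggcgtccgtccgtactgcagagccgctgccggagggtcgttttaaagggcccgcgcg
The motif was found on either strand in 7 of 20 promoters of this group (35%), against 0.119% of all windows. Of these 7 genes, CALR, CANX, ERO1B, HSP90B1 and HSPA5 rose, while CRELD2 (0.16) and XBP1 (-0.04) were not called. Of 21 measured genes 10 rose (47.6%) and 1 fell, with a median of 0.18. HSPA5, the main chaperone of the compartment, was at 11.66 and 11.68 in siDNMT3A, against 11.16 and 11.07 in siNTC-2 and 11.72 and 11.87 in siNTC-1 (0.56 ± 0.06, adjusted p = 7.52e-06). PDIA4, a disulfide isomerase, was at 10.70 and 10.64 in siDNMT3A, against 10.18 and 10.09 in siNTC-2 (0.53 ± 0.05) and 10.31 and 10.26 in siNTC-1. SDF2L1 (0.42 ± 0.07), the lectin chaperones CALR (0.32 ± 0.05) and CANX (0.19 ± 0.04), PDIA6 (0.31 ± 0.04) and HSP90B1 (0.24 ± 0.04) rose as well. HERPUD1, a gene of degradation from the compartment, was the member that fell (-0.30 ± 0.06). Against siNTC-1, 9 members were higher (42.9%) and 5 lower (23.8%), beside 24.7% and 20.8% of all genes, with CALR at -0.46 and HSPA5 at -0.12. XBP1 mRNA differed from siNTC-2 by -0.04 ± 0.08 (adjusted p = 0.806). These chaperones and the ATF4-dependent genes above therefore moved in opposite directions against siNTC-2.

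Cholesterol and fatty acid synthesis is driven by SREBP transcription factors when sterols are short. The motifs TCACNCCAC and CACGTG, searched for in the same windows, were in 1 (4.76%) and 3 (14.3%) of 21 promoters of this group. Over all windows the shares were 1.14% and 8.88%. Of 24 measured genes 14 rose (58.3%) and 0 fell, with a median of 0.21. HMGCS1, the HMG-CoA synthase at the start of the pathway, was at 10.76 in both siDNMT3A arrays, against 9.97 and 10.00 in siNTC-2 and 11.01 and 11.14 in siNTC-1 (0.77 ± 0.05, adjusted p = 7.24e-08). SQLE, squalene epoxidase, was at 10.44 and 10.41 in siDNMT3A, against 9.83 and 9.75 in siNTC-2 and 10.72 and 10.78 in siNTC-1 (0.63 ± 0.06). MSMO1 (0.47 ± 0.05) and IDI1 (0.34 ± 0.07), further enzymes of the sterol branch, INSIG1, which retains SREBP in the endoplasmic reticulum (0.46 ± 0.08), and the fatty acid enzymes FASN (0.27 ± 0.07) and ACLY (0.26 ± 0.05) rose. Against siNTC-1 the median was -0.11, with 5 members higher (20.8%) and 11 lower (45.8%), beside 24.7% and 20.8% of all genes. Of the 24, 8 were called both higher than siNTC-2 and lower than siNTC-1, while 3 were higher than both.

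Small noncoding RNAs were read as classes. Box C/D small nucleolar RNAs mostly guide methylation of ribosomal RNA, whereas the SNORD113 to SNORD116 copies of imprinted clusters have no known ribosomal target. Of 115 measured, 31 rose (27.0%) and 1 fell, with a median of 0.16. SNORD50A was at 9.0 and 9.10 in siDNMT3A, against 8.27 and 8.22 in siNTC-2 and 9.92 and 9.82 in siNTC-1 (0.81 ± 0.05, adjusted p = 7.24e-08). SNORD14C rose by 0.70 ± 0.07 and was at -0.88 against siNTC-1, and the median of the class against siNTC-1 was -0.14. SNORD116-11, of the imprinted Prader-Willi region, rose by 0.62 ± 0.05 and was also higher than siNTC-1 (0.27). Of the 46 copies of SNORD113 to SNORD116, 10 rose (21.7%) and the median was 0.11, and of the other 69 RNAs 21 rose (30.4%) with a median of 0.18, at -0.01 and -0.55 against siNTC-1. Members of one cluster can be near-identical in sequence and share probes, so single members are uncertain. Of 77 H/ACA box and Cajal body RNAs 15 rose (19.5%) and 7 fell (9.09%), for example SNORA3A (0.70 ± 0.05) and SNORA71D (-0.41 ± 0.04). Against siNTC-1 the median of this class was -0.32, with 9 higher (11.7%) and 44 lower (57.1%), beside 24.7% and 20.8% of all genes. Of the 15 that rose, 12 were lower than siNTC-1 and 1 was higher. Of the 7 that fell, 2 were lower than siNTC-1 and 2 were higher.

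RNAs made by RNA polymerase III rose in 5 of 6 measured members (83.3%), out of 15 listed, with a median of 0.53. RPPH1, the RNA of ribonuclease P, was at 11.28 and 11.22 in siDNMT3A, against 10.40 in both siNTC-2 arrays and 8.97 and 9.08 in siNTC-1 (0.85 ± 0.08). The vault RNA VTRNA1-2 was at 10.42 and 10.41 in siDNMT3A, against 9.61 and 9.62 in siNTC-2 and 10.32 and 10.42 in siNTC-1 (0.80 ± 0.06). VTRNA1-1 (0.68 ± 0.14, but -0.76 against siNTC-1), VTRNA1-3 (0.39 ± 0.11) and RMRP, the RNA of ribonuclease MRP (0.25 ± 0.06), rose as well. RNY1, a Y RNA, was at -0.38 ± 0.28 (adjusted p = 0.42). With 1 array left out, VTRNA1-3 and RMRP lost their call in at least 1 fit.

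Among polycomb and H3K36 methyltransferase genes 3 of 11 fell (27.3%) and 0 rose: EZH2 and SUZ12, subunits of the complex that trimethylates H3K27, by -0.24 ± 0.05 and -0.22 ± 0.05, and NSD1, whose H3K36 mark recruits DNMT3A, by -0.18 ± 0.05. Of 20 pluripotency genes 4 rose (20%): KLF4 was at 8.62 and 8.55 in siDNMT3A, against 7.91 and 7.92 in siNTC-2 and 8.41 and 8.32 in siNTC-1 (0.67 ± 0.08), and GDF3 (0.34 ± 0.05), ZFP42 (0.27 ± 0.06) and FGF4 (0.25 ± 0.08) also rose. Against siNTC-1, GDF3 and ZFP42 were lower, at -0.74 and -0.39. With 1 array left out, SUZ12, NSD1 and FGF4 lost their call in at least 1 fit.

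Germline, imprinted and repeated gene families are often studied after loss of DNA methylation. Of 33 germline and meiosis genes 2 rose (6.06%) and 3 fell (9.09%), the falls being those of MAEL (-0.53 ± 0.11), the meiotic recombinase gene DMC1 (-0.47 ± 0.07) and GTSF1, of the piRNA pathway (-0.47 ± 0.08). MAEL was at 5.10 and 4.99 in siDNMT3A, against 5.70 and 5.46 in siNTC-2 and 4.69 and 4.53 in siNTC-1. Cancer-testis antigens rose in 1 of 17 (5.88%), imprinted genes in 3 of 25 (12%) with 2 lower, HOX genes in 1 of 27 and interferon response genes in 1 of 26, and 1 of 16 protocadherin beta genes fell. These shares are near or below those over all genes. Of 13 neural genes 3 fell (23.1%) and 0 rose, of 13 trophoblast and extraembryonic genes 2 fell (15.4%) and 0 rose, and of 18 mesoderm and endoderm genes 1 rose (5.56%) and 0 fell. Of the neural genes, PAX6 fell (-0.39 ± 0.10, adjusted p = 0.0137) and ZIC1 fell (-0.38 ± 0.08), at low values of 4.09 to 4.65 in siDNMT3A and 4.50 to 4.97 in siNTC-2. None of the 3 neural genes that fell was called in either direction against siNTC-1. With 1 array left out, PAX6 lost its call in at least 1 fit. TFAP2A, which encodes an AP-2 factor of early ectoderm, was at 12.02 and 12.03 in siDNMT3A, against 12.44 and 12.47 in siNTC-2 (-0.43 ± 0.05).

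DNMT3A siRNA was also added to other depletions, on arrays shared with neither siDNMT3A nor siNTC-2. The additions to siD1+3B and to 3B+3L are described here, a choice made with earlier results known, and those to siDNMT1, siDNMT3B and siDNMT3L alone were not analysed here. Added to siD1+3B, it brought DNMT3A to 6.95 and 6.81 in siD1+3A+3B, against 7.33 and 7.35 in siD1+3B (-0.46 ± 0.07, adjusted p = 0.00181). Added to 3B+3L, it brought DNMT3A to 6.89 and 6.98 in 3A+3B+3L, against 7.23 and 7.24 in 3B+3L (-0.30 ± 0.07, adjusted p = 0.00642). Other targeted transcripts shifted too. DNMT1 was higher in siD1+3A+3B than in siD1+3B (0.26 ± 0.05, adjusted p = 0.0155), where DNMT3B did not pass the test (0.19 ± 0.06). DNMT3B was higher in 3A+3B+3L than in 3B+3L (0.45 ± 0.06, adjusted p = 4.32e-05), where DNMT3L did not pass (0.07 ± 0.12). These comparisons thus do not differ in the DNMT3A transcript alone, and the part of the other shifts was not tested. In siD1+3A+3B against siD1+3B 556 genes were called (3.02%), 246 higher (1.34%) and 310 lower (1.68%). That count fell to between 114 and 165 with 1 of its arrays left out and to 12 when only those groups were fitted, and quantile normalization gave 381 higher and 354 lower, so the overlaps with it below are uncertain. In 3A+3B+3L against 3B+3L 3481 were called (18.9%), 1397 higher (7.59%) and 2084 lower (11.3%). The second of these comparisons also moved along the first principal component, with 4.436 and 3.847 in 3A+3B+3L against 20.18 and 17.67 in 3B+3L, whereas siD1+3A+3B at 7.768 and 9.515 lay near siD1+3B at 3.819 and 3.399. The part of that component in the results was not tested.

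The genes called with DNMT3A siRNA alone were then looked up in these comparisons. Of the 1555 that rose, 77 also rose when it was added to siD1+3B (4.95% of them, and 31.3% of the 246), and 59 fell (3.79%). Of the 1356 that fell, 81 also fell (5.97% of them, and 26.1% of the 310), and 60 rose (4.42%). Over all genes 1.34% were called higher there and 1.68% lower, so same and opposite calls both exceeded the share over all genes. With 3B+3L the overlap was 460 of the rises (29.6%, and 32.9% of the 1397) and 621 of the falls (45.8%, and 29.8% of the 2084), with 85 (5.47%) and 42 (3.1%) in the opposite direction. In that comparison 7.59% of all genes were called higher and 11.3% lower. Tested directly, the effect of DNMT3A siRNA alone differed from its effect added to siD1+3B in 1486 genes (8.07%) and from its effect added to 3B+3L in 1692 genes (9.19%). Of the 15 leading rises, 3 were also called higher when added to siD1+3B and 8 when added to 3B+3L, and of the 15 leading falls 0 and 13 were also called lower. SHISA3 showed a difference of -0.16 ± 0.13 when added to siD1+3B (adjusted p = 0.649), unlike its fall alone (difference of the effects -1.27, adjusted p = 0.000325), and it fell by 0.95 when added to 3B+3L (difference -0.95 ± 0.13).

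Of the gene groups, basement membrane genes had a median of 0.17 when DNMT3A siRNA was added to siD1+3B, and of -0.03 when it was added to 3B+3L. In the first comparison 4 of 26 were higher (15.4%) and 0 lower, beside 1.34% and 1.68% of all genes. In the second 3 were higher (11.5%) and 4 lower (15.4%), near the 7.59% and 11.3% of all genes. Stress response genes had a median of 0.27 in the first, with 21 higher and 0 lower of 33, and of -1.02 in the second, with 0 higher and 31 lower. Their direction therefore differed between the 3 comparisons. The ER chaperones had medians of 0.01 and 0.16, with 1 higher and 0 lower of 21, then 9 higher and 3 lower. Cholesterol and fatty acid synthesis had medians of -0.06 and 0.35, with 0 higher and 2 lower of 24, then 19 higher and 0 lower. C/D box RNAs had medians of -0.09 and 0.18, with 0 higher and 14 lower of 115, then 47 higher and 0 lower. The 6 RNA polymerase III transcripts had medians of -0.29 and 0.17, with 0 higher and 3 lower, then 3 higher and 0 lower.

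**Figure D4:**
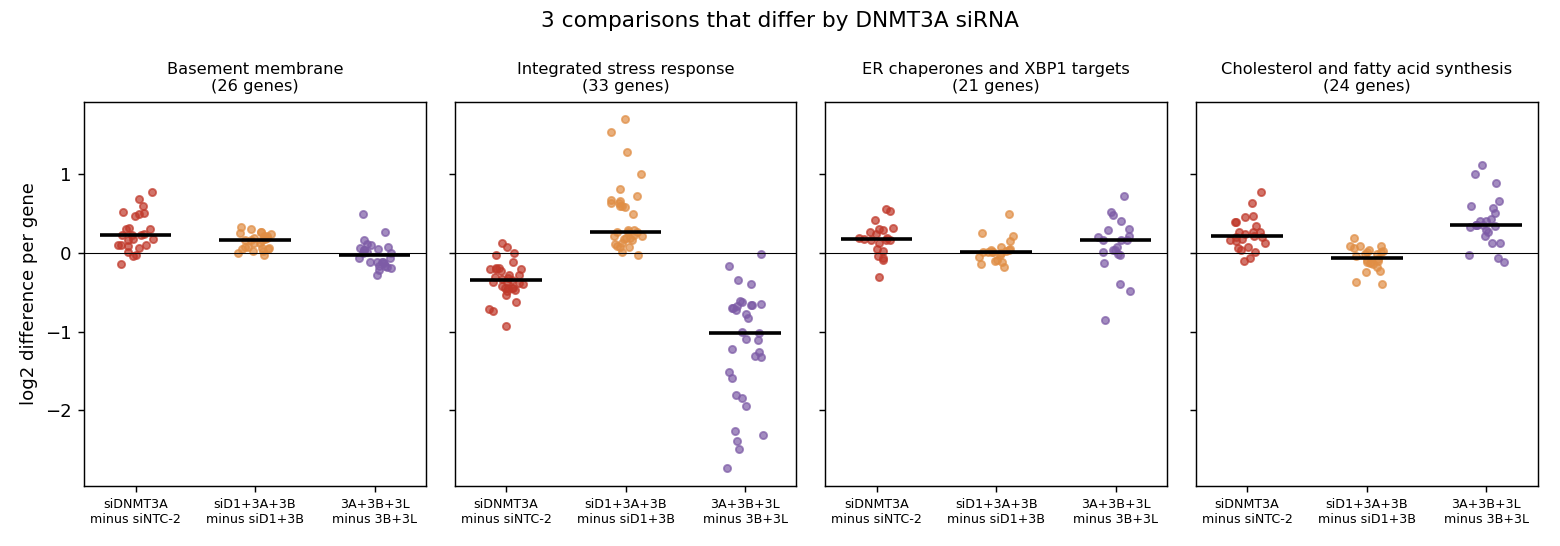
Log2 difference of each measured gene of 4 groups in siDNMT3A against siNTC-2, siD1+3A+3B against siD1+3B and 3A+3B+3L against 3B+3L, where each point is 1 gene and each line the median of the group. The stress response lies below 0 alone (median -0.35), above 0 when added to siD1+3B (0.27) and far below when added to 3B+3L (-1.02). Basement membrane genes have medians of 0.23 in siDNMT3A, 0.17 when DNMT3A siRNA is added to siD1+3B and -0.03 when it is added to 3B+3L.

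Some genes moved the same way in all 3 comparisons, 15 higher (0.0814%) and 31 lower (0.168%), and DNMT3A itself was one of those lower. The set depends on the calls of siD1+3A+3B against siD1+3B: with 1 array of these groups left out, 1 to 5 of the 15 and 13 of the 31 were still called in all 3, the lowest without siD1+3B replicate 2. ACTG2, the smooth muscle gamma actin, rose in each: it was at 8.39 and 8.41 in siDNMT3A against 7.59 and 7.75 in siNTC-2, at 7.47 and 7.58 in siD1+3A+3B against 6.88 and 6.89 in siD1+3B, and at 7.58 and 7.52 in 3A+3B+3L against 6.32 and 6.53 in 3B+3L. In each pair both arrays with DNMT3A siRNA were above both without it, although siNTC-1 was at 8.39 and 8.55. TENM1 rose by 1.07, 0.47 and 0.40 in the 3 comparisons, and TENM3 by 0.35, 0.27 and 0.32, so both teneurins belong to this set. CDH9 (1.02, 0.51 and 0.64), ADAMTS9 (0.94, 0.43 and 0.47), the GTPase gene RAB15 (0.80, 0.45 and 0.30), GRAMD2B (0.77, 0.32 and 0.44), CIMAP3 (0.71, 0.37 and 0.26), MICA, a stress-induced ligand of natural killer cells (0.51, 0.44 and 0.43), and FARP2 (0.35, 0.32 and 0.28), rose too. The difference of FARP2 from siNTC-1 did not pass the test (-0.00, adjusted p = 0.974).

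Among the falls, M6PR, the receptor that carries mannose 6-phosphate enzymes to lysosomes, was at 10.67 and 10.68 in siDNMT3A against 11.25 in both siNTC-2 arrays, at 10.88 and 10.77 in siD1+3A+3B against 11.22 and 11.33 in siD1+3B, and at 10.83 and 10.91 in 3A+3B+3L against 11.32 and 11.27 in 3B+3L. Its differences of -0.58, -0.45 and -0.42 were thus of like size, and it was also lower than siNTC-1 (-0.67). MMD was at 9.17 and 9.26 in siDNMT3A, against 10.00 in both siNTC-2 arrays (-0.79, with -0.43 and -0.64 in the other comparisons), but at 9.10 and 9.14 in siNTC-1. GTSF1 (-0.47, -0.61 and -0.32), GTF2H1, a subunit of the repair and transcription factor TFIIH (-0.39, -0.46 and -0.38), STRA6, a receptor for retinol-binding protein (-0.36, -0.41 and -0.43), the mitochondrial genes MRPL42 (-0.52, -0.35 and -0.50) and ROMO1 (-0.59, -0.33 and -0.71), and TMEM31 (-0.39, -0.40 and -0.53) fell in all 3. RPL13P5 and H3C11 were in the set as well (H3C11 lost its call with any single array left out), but a pseudogene and a histone gene have near-identical copies that can share probes, so their values are uncertain. GTSF1 was at 7.16 and 6.99 in siNTC-1, so its fall was not seen against that control (0.11, adjusted p = 0.273). STRA6 (0.46), ROMO1 (0.39), TMEM31 (0.31), RPL13P5 (0.68) and H3C11 (0.48) were higher than siNTC-1, each past the threshold. GTF2H1 was lower than siNTC-1 (-0.20).

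**Figure D5:**
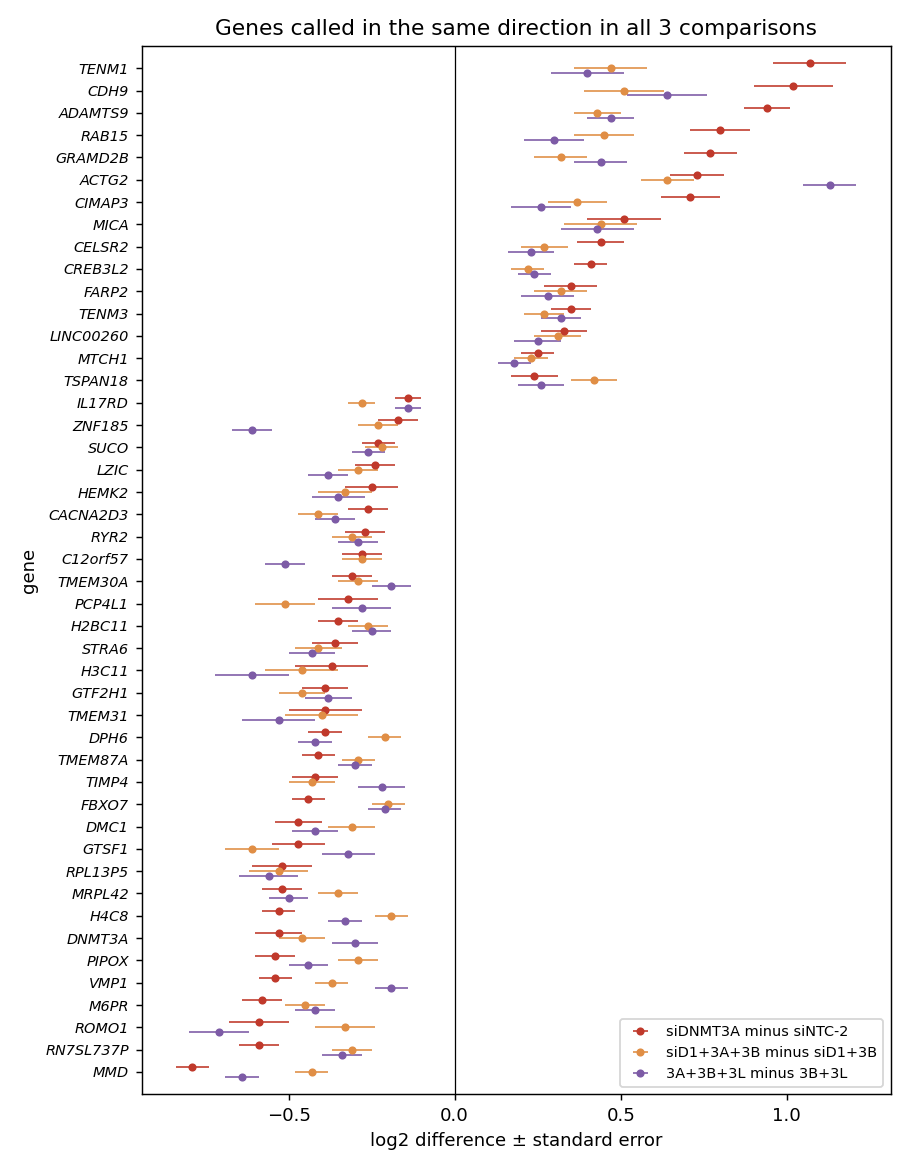
Log2 difference with its standard error for the genes called in the same direction in siDNMT3A minus siNTC-2 (red), siD1+3A+3B minus siD1+3B (orange) and 3A+3B+3L minus 3B+3L (purple). TENM1 and CDH9 rise most with DNMT3A siRNA alone, ACTG2 most when it is added to 3B+3L (1.13), and M6PR falls by a like amount in all 3.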

How the data were processed

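The authors deposited log2 values, 1 for each transcript cluster and array, which were taken unchanged. Partek is named, per the submitters' processing notes, while its version and the steps of background correction, summarisation and scaling are not named there. The log base was inferred, since values ran between 3.04 and 14.87, and array medians lay between 6.28 and 6.33, so a change of all transcripts together cannot be seen. Of 33297 rows, 19460 had 1 gene symbol, 1754 several and 12083 none, and the first kind was used. For 769 genes with more than 1 such row the row with the highest mean was taken, which left 18417 genes with no filter on low values. Names were checked by gene number against RefSeq of GRCh38.p14 (19429 rows matched, 0 renamed).

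A linear model with 1 mean per group was fitted to the 26 arrays in R 4.3.3, using lmFit and eBayes of limma 3.58.1, leaving 13 residual degrees of freedom. Tests are two-sided, p-values were adjusted by Benjamini-Hochberg over all genes at 0.05, and the script was tested on simulated data. Errors are standard errors of the fit, n is 2 arrays a group, and the number of arrays limits the precision. Named are the 15 largest rises and 15 largest falls among called genes with both siDNMT3A arrays beyond both siNTC-2 arrays, the methyltransferase, TET and UHRF1 genes, up to 4 members of a list by adjusted p plus those needed to describe it, up to 10 genes a direction called in all 3 comparisons, and the 3 largest differences between effects a direction. Groups came from the titles. The comparison, members and gene lists were chosen with earlier results of these data known. Duplicates with the same number in siDNMT3A and siNTC-2 did not deviate together (r = -0.071 across genes, which are not independent), and numbers were not taken to pair samples. Alternatives were another control, a filter on the 40% dimmest genes, quantile normalization, a trended and robust prior, array weights, a replicate block, the mean of all clusters of a gene, a fit of the compared groups alone, and each array left out.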

Additional observations from a re-analysis of the deposited data

Results flagged for a closer look

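The results below were flagged because the effect of DNMT3A siRNA differed between 2 settings when the difference itself was tested in limma. The effect alone (siDNMT3A minus siNTC-2) differed from the effect added to siD1+3B (siD1+3A+3B minus siD1+3B) in 1486 genes. The largest positive differences of the effects were those of the vault RNAs VTRNA1-1 (1.51 ± 0.19, adjusted p = 7.07e-05) and VTRNA1-2 (1.27 ± 0.08) and of RNU11 (1.32 ± 0.14). VTRNA1-2 was at 10.42 and 10.41 in siDNMT3A against 9.61 and 9.62 in siNTC-2, but at 10.41 and 10.43 in siD1+3A+3B against 10.87 and 10.91 in siD1+3B. The largest negative ones were those of stress-response genes, INHBE, an activin subunit (-1.98 ± 0.18), DDIT4, an inhibitor of mTORC1 (-1.88 ± 0.11), and CHAC1 (-1.67 ± 0.17). DDIT4 was at 9.31 in both siDNMT3A arrays against 9.46 and 9.54 in siNTC-2, and at 8.86 and 8.94 in siD1+3A+3B against 7.18 and 7.23 in siD1+3B.

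The effect alone differed from the effect added to 3B+3L (3A+3B+3L minus 3B+3L) in 1692 genes. The largest positive differences were again those of INHBE (2.30 ± 0.18), DDIT4 (2.20 ± 0.11) and CHAC1 (1.89 ± 0.17), which were far lower in 3A+3B+3L than in 3B+3L. Against siNTC-2, INHBE and CHAC1 lost their call in fits with 1 array left out (highest adjusted p 0.178 and 0.192). INHBE was at 8.28 and 8.20 in siDNMT3A against 8.77 and 8.59 in siNTC-2, and at 6.13 and 6.11 in 3A+3B+3L against 8.96 and 8.75 in 3B+3L. The largest negative ones were those of THBS2 (-1.18 ± 0.10) and the small nucleolar RNAs SNORD75 (-1.04 ± 0.13) and SNORD12C (-1.03 ± 0.10). These 2 groups of arrays also differ along the first principal component, with 4.436 and 3.847 in 3A+3B+3L and 20.18 and 17.67 in 3B+3L, and its part in these differences was not tested.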

How the results depend on the processing

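The count of called genes depended most on the choice of control and on the number of arrays behind the spread. In place of 2911 genes, siDNMT3A gave 8379 against siNTC-1 alone, 5427 against the mean of both controls, 1291 when only its 4 arrays were fitted, and 1614 to 1924 with 1 of those arrays left out. The 152 genes past 1.5-fold were 1478 against siNTC-1 alone, 264 against the mean of both controls and 161 to 179 with 1 array left out. Between siD1+3A+3B and siD1+3B the 556 genes became 923 without the 40% dimmest genes, 922 with a trended and robust prior, 1042 with array weights, 12 when only those groups were fitted and 114 to 165 with 1 array left out. Between 3A+3B+3L and 3B+3L the 3481 genes became 2149 to 2454 with 1 array left out. The difference of differences against siD1+3A+3B over siD1+3B held 1486 genes, which became 5442 with siNTC-1 alone, 905 with only those groups and 906 to 1059 with 1 array left out. The one against 3A+3B+3L over 3B+3L held 1692 genes, which became 7518 with siNTC-1 alone, 4969 with the mean of both controls, 1108 with only those groups and 922 to 1260 with 1 array left out. Fits of fewer arrays leave fewer residual degrees of freedom by construction, and another control is another comparison; for the other changes the cause was not tested.

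Quantile normalization moved the split of higher and lower calls to 381 and 354 between siD1+3A+3B and siD1+3B, against 246 and 310 before it, to 1919 and 1855 between 3A+3B+3L and 3B+3L, against 1397 and 2084, to 881 and 895 in the first difference of differences, against 825 and 661, and to 994 and 942 in the second, against 1105 and 587. With the replicate number as a block, siDNMT3A against siNTC-2 gave 2843 genes, 151 of them past 1.5-fold, the comparison within DNMT1 and DNMT3B knockdown 518, that within DNMT3B and DNMT3L knockdown 3439, and the differences of differences 1405 and 1620. The replicate block changed the call of none of the 182 named genes tested against siNTC-2. The DNMT3A transcript stayed lower and called under every alternative, between -0.74 and -0.51 on the log2 scale, with adjusted p from 2.17e-07 to 0.0105.

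Against siNTC-1 alone the log2 difference of these named genes had the opposite sign to that against siNTC-2: AARS1 0.54, ACLY -0.06, ACTG2 -0.07, ADGRL1 0.11, ADM 0.11, ALDH1L2 1.37, ARRDC4 1.88, ATF4 0.09, BEST1 1.28, CALR -0.46, CD3E -0.1, CDC6 0.36, CDKN1A 0.25, CEBPB 1.13, CHAC1 3.15, COL1A1 -0.11, COL4A5 0.0, COX6C -1.17, COX7A2 -0.42, DCN -0.02, DDIT3 1.26, DDIT4 2.44, DMC1 0.19, DNMT1 -0.05, DNMT3B -0.18, FARP2 -0.0, FZD3 -0.01, GARS1 0.27, GDF15 1.22, GDF3 -0.74, GTSF1 0.11, H3C11 0.48, HERPUD1 0.51, HMGCS1 -0.32, HSPA5 -0.12, IDI1 -0.53, INHBE 2.53, INSIG1 -0.46, JUN 0.32, LAMA4 -0.11, LAMB2 0.28, LAMP3 0.84, LGR4 -0.02, LINC01152 0.79, LYZ -0.12, MAEL 0.43, MAL2 0.86, MMD 0.09, MT1X -0.01, NUPR1 0.5, PDIA6 -0.27, PSAT1 0.72, RNU11 -0.04, RNY1 1.1, ROMO1 0.39, RPL13P5 0.68, SALL4 0.17, SARS1 0.48, SLC2A1 -0.93, SLC3A2 0.16, SLC7A11 0.84, SNORA20 -0.7, SNORD14C -0.88, SNORD50A -0.82, SOX2 0.13, SQLE -0.33, STRA6 0.46, SV2B 0.22, TAC1 0.28, TET2 0.15, TET3 0.63, TMEM31 0.31, TRIB3 1.7, TXNIP 3.53, TYMS -0.32, UHRF1 -0.37, VCAN -0.19, VEGFA 1.27, VTRNA1-1 -0.76, WARS1 0.17, XBP1 0.71, ZFP42 -0.39. Against the mean of both controls the sign turned for AARS1 0.03, ALDH1L2 0.33, ARRDC4 0.68, ATF4 0.04, BEST1 0.19, CALR -0.07, CD3E -0.05, CDC6 0.06, CEBPB 0.3, CHAC1 1.38, COL1A1 -0.05, COX6C -0.31, DDIT3 0.44, DDIT4 1.13, DNMT3B -0.02, GARS1 0.04, GDF15 0.18, GDF3 -0.2, H3C11 0.05, HERPUD1 0.1, IDI1 -0.09, INHBE 1.04, LAMB2 0.13, LYZ -0.0, PSAT1 0.14, RNY1 0.36, RPL13P5 0.08, SALL4 0.05, SARS1 0.03, SLC2A1 -0.35, SLC7A11 0.2, SNORD14C -0.09, SNORD50A -0.01, SOX2 0.07, STRA6 0.05, TET3 0.21, TRIB3 0.38, TXNIP 1.64, TYMS -0.03, UHRF1 -0.12, VEGFA 0.36, VTRNA1-1 -0.04, XBP1 0.33, ZFP42 -0.06. The mean of all clusters of the gene turned ATF4 0.28. Quantile normalization turned CD14 0.02, SOX2 0.04. With 1 array left out, genes whose sign turned spanned ATF4 -0.04 to 0.01, CD14 -0.09 to 0.07, CD3E -0.01 to 0.03, COL1A1 -0.0 to 0.03, DCN -0.02 to 0.09, DNMT3L -0.03 to 0.16, DPPA4 -0.11 to 0.01, LAMB2 -0.07 to 0.01, LAMB3 -0.11 to 0.03, LUM -0.15 to 0.06, SNORD12C -0.09 to 0.05, SOX2 -0.03 to 0.03, XBP1 -0.09 to 0.01. With 1 array left out, 41 named genes lost their call in at least 1 such fit, with highest adjusted p, gene by gene, of BOC 0.153, CANX 0.0648, CDKN1A 0.156, CHAC1 0.192, FARP2 0.106, FASN 0.144, FGF4 0.501, FRAS1 0.177, FREM2 0.069, FZD10 0.176, FZD3 0.269, FZD6 0.314, FZD7 0.143, H3C11 0.144, HSPG2 0.0939, INHBE 0.178, LAMA5 0.256, LAMB1 0.0957, LGR4 0.055, LRP5 0.106, MAEL 0.0577, MBD4 0.132, MT1E 0.0791, MT1G 0.0551, MT1H 0.207, MT2A 0.1, NSD1 0.183, PAX6 0.0965, RMRP 0.0825, RNU5B-1 0.199, SLC2A1 0.173, SUZ12 0.104, TAC1 0.132, TMEM31 0.0971, TXNIP 0.134, TYMS 0.0586, UNC5B 0.0916, VTRNA1-3 0.236, WNT11 0.272, WNT4 0.0903, ZNRF3 0.16. The median over the integrated stress response list was at 0.72 against siNTC-1 alone and 0.19 against the mean of both controls, against -0.35 with siNTC-2; that over cholesterol and fatty acid synthesis was at -0.11 and 0.02, against 0.21, and that over C/D box snoRNAs at -0.14 and -0.01, against 0.16. The median over teneurins and latrophilins was at -0.06 without the dimmest genes, against 0.07.

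With duplicates only, each comparison rests on 2 arrays a group, and the number of arrays limits its precision. No background level was used here, so no gene can be called absent, and the log base was inferred from the values.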

Other observations

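Further gene groups are given here by their called members, beside 8.44% of all genes called higher and 7.36% called lower. Metallothioneins, which bind zinc and copper, rose in 4 of 10 measured members (40%) and fell in 1 (10%). MT1X was at 10.15 and 10.14 in siDNMT3A, against 9.55 and 9.54 in siNTC-2 and 10.06 and 10.25 in siNTC-1 (0.60 ± 0.06, limma adjusted p = 5.29e-06), and MT1E (0.36 ± 0.08), MT2A (0.29 ± 0.07) and MT1G (0.22 ± 0.05) rose too, whereas MT1H fell (-0.22 ± 0.06). Of these 5, MT1X alone kept its call in every fit with 1 array left out, where the highest adjusted p was 0.0791 for MT1E, 0.1 for MT2A, 0.0551 for MT1G and 0.207 for MT1H. Of 26 glycolysis and hypoxia genes 6 rose (23.1%) and 3 fell (11.5%). PFKL, a phosphofructokinase, rose by 0.43 ± 0.08 and SLC2A1, the glucose transporter, by 0.24 ± 0.06, while VEGFA, an angiogenic growth factor, was at 8.74 and 8.78 in siDNMT3A, against 9.33 and 9.29 in siNTC-2 and 7.58 and 7.40 in siNTC-1 (-0.55 ± 0.08). Among the arrestins that respond to glucose, ARRDC4 (-0.52 ± 0.11) and TXNIP (-0.24 ± 0.07) fell against siNTC-2. TXNIP was at 11.97 and 11.93 in siDNMT3A, against 12.19 and 12.21 in siNTC-2 and 8.30 and 8.54 in siNTC-1.

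Genes of the p53 response rose in 3 (15%) and fell in 4 (20%) of 20 members. TP53INP1, of autophagy and cell death, was at 7.33 in both siDNMT3A arrays, against 6.65 and 6.61 in siNTC-2 and 6.54 and 6.65 in siNTC-1 (0.70 ± 0.07), and CDKN1A, the cell cycle inhibitor p21, was at -0.44 ± 0.11. Hedgehog pathway genes rose in 3 of 14 (21.4%), led by the transcription factor gene GLI3 (0.38 ± 0.06) and the co-receptor gene BOC (0.35 ± 0.09), and 1 fell. None of the 3 that rose was called higher than siNTC-1. From that control GLI3 differed by 0.03 (limma adjusted p = 0.74) and BOC by 0.22 (adjusted p = 0.0545). Of 28 respiratory chain genes 4 rose (14.3%) and 1 fell, among the rises them COX6C (0.54 ± 0.05) and COX7A2 (0.51 ± 0.05), subunits of cytochrome c oxidase, which were at -1.17 and -0.42 against siNTC-1. DNA replication genes rose in 3 and fell in 4 of 32, with TYMS at 0.25 ± 0.05 and CDC6 at -0.24 ± 0.04. Replication-dependent histones rose in 8 and fell in 7 of 63, for example H1-2 (0.47 ± 0.07), and ribosomal proteins rose in 2 and fell in 2 of 30, with RPL22L1 at -0.66 ± 0.08. With 1 array left out, SLC2A1, TXNIP, CDKN1A, BOC and TYMS lost their call in at least 1 fit, with the highest adjusted p at 0.173, 0.134, 0.156, 0.153 and 0.0586.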
